A study of Homo sapiens with 15 samples.

Results

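Mitochondrial ribosomal protein genes were taken as the rows of the deposited table whose symbol begins with MRPL or MRPS followed by a number and at most 1 letter from A to C, and whose normalized counts averaged at least 10 across the 15 libraries. Of 59608 genes in the table, 78 carried such a symbol and 75 of these reached the mean, among 13561 genes that did so overall. The choice used symbols and the overall mean, not the response to the compound. RNA came from MDA-MB-231, an established human line of triple-negative breast cancer, grown flat on dishes for 6 h with vehicle or with ZJ-101, a simplified analog of the sponge macrolide superstolide A. The vehicle group received 0.1% DMSO and the other 4 groups ZJ-101 at 0.5, 5, 50 or 500 nM, and each group had 3 biological replicates. All libraries are therefore of 1 cell line, with no genetic change between groups and 1 time point. The question was how transcripts respond across the dose range at this early time.

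Mitochondria keep a ribosome of their own, which descends from that of bacteria and makes the few inner-membrane proteins still encoded by mitochondrial DNA. Its RNA is transcribed inside the organelle, but every one of its proteins is encoded in the nucleus, made in the cytosol and imported, so that a large set of scattered nuclear genes has to supply 1 particle. Many of these proteins have counterparts in bacteria, and the others are particular to mitochondria. A symbol does not always give the place of a protein, since MRPS18A and MRPS30 sit in the large subunit and MRPS36 is now placed in the oxoglutarate dehydrogenase complex of the citric acid cycle. By place, 50 of the 75 genes belonged to the large subunit, 24 to the small subunit and 1 was MRPS36. By descent, 43 had a bacterial homologue and 31 were particular to mitochondria. The 75 genes lay on 21 chromosomes (GENCODE release 44, GRCh38), with at most 8 on any one.

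At 500 nM, 3 of the 75 genes rose and 0 fell. MRPL18, MRPL32 and MRPS25 stood between 22.3% and 23.9% above their DMSO means. Among all genes tested at this dose, 7.69% rose and 10.1% fell, and a difference between the set and other genes was not tested. The promoters of the pair with the smallest p are shown because both genes start next to a gene that is read in the opposite direction. MRPL18 shares its start region on chromosome 6 with TCP1, a subunit of the cytosolic chaperonin that folds actin and tubulin, and 109 bases separate the annotated starts. MRPL32 shares its start region on chromosome 7 with PSMA2, a subunit of the proteasome, at a distance of 191 bases. The stretch between MRPL18 and TCP1, chr6:159789703-159789811, and the 160 bases before MRPL32, chr7:42932216-42932375, read as follows on the plus strand (RefSeq, GRCh38.p14), which is the strand of both MRPL genes. Capitals mark matches to CGGAAGT, the core letters bound by ETS factors.
MRPL18: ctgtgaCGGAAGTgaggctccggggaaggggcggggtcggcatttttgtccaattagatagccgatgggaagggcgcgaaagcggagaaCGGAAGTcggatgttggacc
MRPL32: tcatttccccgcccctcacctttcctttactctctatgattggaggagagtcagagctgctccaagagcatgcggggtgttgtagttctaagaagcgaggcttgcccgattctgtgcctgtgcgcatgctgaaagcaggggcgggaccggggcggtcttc

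The MRPL18 stretch held CGGAAGT at 2 places, which began 103 and 20 bases before the start, and the MRPL32 stretch held none. A paired heat-shock element, GAANNTTC, matched once in MRPL18, as GAACCTTC from base 15 after the start. MRPL32 matched the YY1 letters GCCATNTT once 222 bases before the start, beyond the stretch shown, and once on the other strand from base 9 after it. MRPS25 held none of the 5 motifs searched. These were CGGAAGT, GCCATNTT, GAANNTTC, its longer form with GAA 2 bases further on, which contains it, and for NRF1 TGCGCA and GCGC with 1 base of any kind between them, each looked for on both strands from 250 bases before to 50 after the start. RefSeq windows were at hand for 66 of the 75 genes. The YY1 letters occurred in 23 of the 66 (34.8%), against 6.81% of 27305 windows of the same length from all genes and 10.4% of the 10029 windows of genes tested here. For CGGAAGT the shares were 16.7%, 7.22% and 13.8%, and for NRF1 they were 7.58%, 2.97% and 5.64%. For GAANNTTC they were 9.09%, 6.85% and 4.64%. MRPL48 and MRPL51 (3.03% of the 66) held the longer heat-shock form, against 0.491% of all windows and 0.329% of those of genes tested here. A match of letters is a description of the window and was not tested as a site.

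Before the responses, the level of each gene in vehicle-treated cells shows how unevenly the set was read. Normalized counts per kilobase of the canonical transcript in DMSO had a median of 515 over the 75 genes, with quartiles of 206 and 838. The highest was MRPL41 at 2090 ± 72.8 (SD, n = 3), a protein particular to the mitochondrial large subunit. MRPL14 followed at 1655 ± 65.9 and MRPL51 at 1630 ± 31.0. MRPL14 is a conserved protein of the face that meets the small subunit. These 2 neighbours in the order did not differ beyond their spread. By count, without regard to length, MRPS10 had the highest mean over all libraries, 2415.

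The lowest levels per kilobase were those of MRPL45 at 10.3 ± 4.45, MRPL38 at 11.9 ± 5.20 and MRPL2 at 22.8 ± 3.88. MRPL45 and MRPL38 did not differ beyond their spread. Over the 75 genes, the highest level per kilobase was 202 times the lowest. Annotation moved with the low end. Reads from shared exons or from copies on alternate contigs can be set aside by a counter, and neither its mode nor its strand setting is stated for these files. In 8 of the 75 genes over 50% of the canonical exon bases also belonged to another annotated gene, and their levels per kilobase had a median of 75.1 (11.9 to 270), against 574 (10.3 to 2090) in the other 67. Other annotated genes on either strand covered 94.3% of these bases in MRPL38, 73.4% in MRPL46, 69.5% in MRPL12 and 54.5% in MRPL2. In each the largest exon overlap was with a protein-coding gene on the same strand. MRPL45 shared none and has a copy on an alternate contig of hg38. How far the counting of such reads set the low values was not tested.

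**Figure D1:**
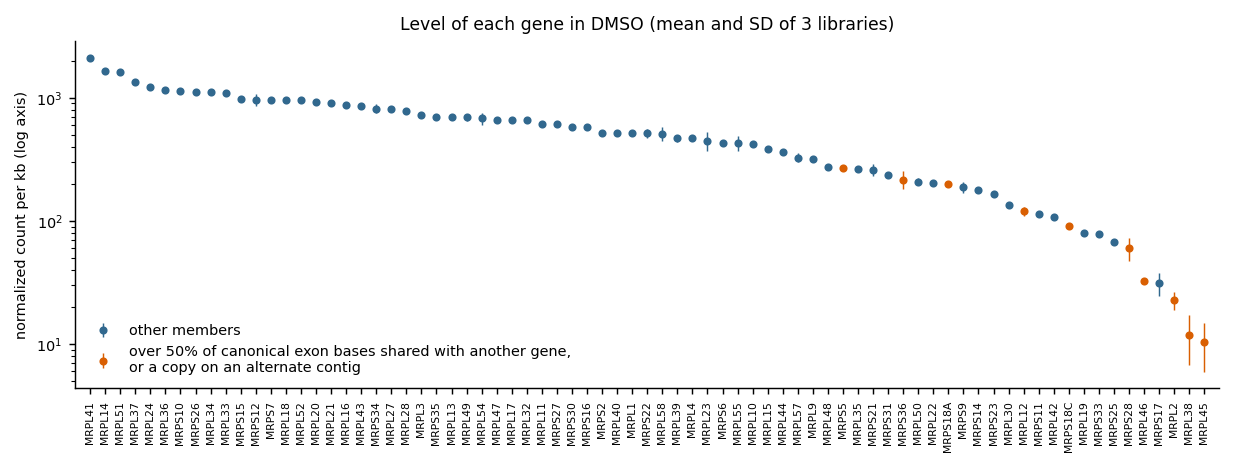
Normalized counts per kilobase of canonical transcript in DMSO (log axis) for the 75 mitochondrial ribosomal protein genes, ordered by level, with points for the mean and bars for the SD of 3 libraries. MRPL41 stood highest at 2090 and MRPL45 lowest at 10.3, and orange points, which mark genes with a copy on an alternate contig or over 50% of canonical exon bases shared with another gene, all lay at or below 270.

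The minimum of 10 left out 3 rows with the same kind of symbol. MRPS18B, 1 of the 3 human relatives of bacterial S18, had a mean of 0.603 and reached 6.24 at most. It lies in the MHC region on chromosome 6 (30617840 to 30626395) and has copies on 6 alternate contigs. MRPL53 was listed at 0 in all 15 libraries, and 99.2% of its canonical exon bases were also covered by other annotated genes. The largest overlap was with a long noncoding RNA gene on the opposite strand. MRPS24 had a mean of 8.99, and 90.9% of its canonical exon bases belonged as well to other annotated genes. The largest overlap was with its readthrough partner URGCP-MRPS24. Just inside the minimum stood MRPL45 (mean 13.0), MRPL38 (17.1) and MRPL46 (32.6). What set the low values of these rows was not tested.

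The reading of the set by library showed 1 library apart. The 75 genes took 0.399% to 0.473% of the reads in a library, and their summed normalized counts ran from 54325 to 57811 in 14 libraries and reached 64493 in replicate 2 of 0.5 nM. In that library 49 of the 75 genes had their highest value of all 15. The median log2 deviation of the genes from their own means was 0.18 there and between -0.08 and 0.03 elsewhere, while the median of all genes tested stayed near 0 in every library. Shorter transcripts as a class stood high in the same library. Across 12633 genes, which share the library and are no independent replicates, Spearman's rho between this deviation and transcript length was -0.53 there and between -0.25 and 0.20 in the others. The 75 genes had a median transcript length of 1260 bases, against 3282 for all genes tested with an annotation.

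**Figure D2:**
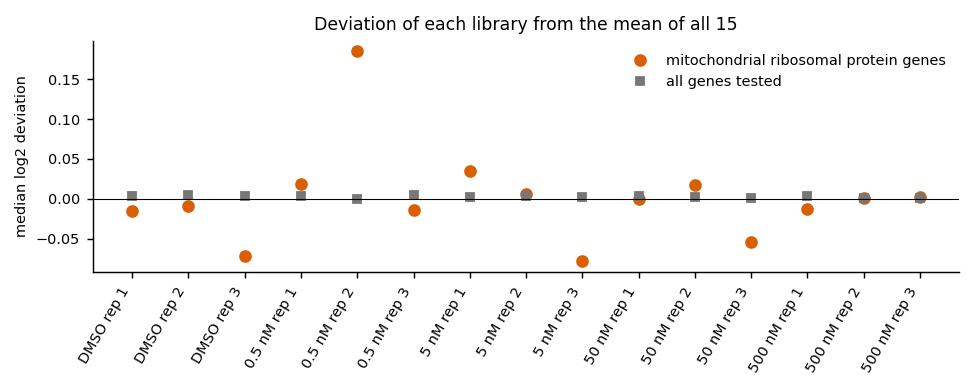
Median log2 deviation of each of the 15 libraries from the mean of all libraries, over the 75 mitochondrial ribosomal protein genes (circles) and over all genes tested (squares). Replicate 2 of 0.5 nM stood at 0.18 for the mitochondrial ribosomal protein genes, and the other libraries lay between -0.08 and 0.03.

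Sequencing depth was similar throughout, with 12415519 to 15284762 recovered reads on genes per library, of which mitochondrial transcripts took 0.889% to 2.06%. The line showed its known mesenchymal markers. VIM, CD44, CAV1, AXL and LGALS1 were all at or above 7328 normalized counts in every library. The defining luminal gene ESR1, for the estrogen receptor, reached at most 4.30. The leukocyte marker PTPRC and the fibroblast marker DCN reached at most 3.53 and 1.02, while CDH1, EPCAM and the endothelial marker PECAM1 were present at 107 to 321. At 500 nM CD44 and CDH1 were lower than in DMSO, with log2 differences of -0.38 and -0.54 (adjusted p = 1.36e-06 and 0.0118, limma). AXL was higher by 0.22 (adjusted p = 0.000586, limma). Normalized counts of CDH1 averaged 196 in DMSO and 113, 125, 168 and 135 at 0.5, 5, 50 and 500 nM, lowest at 0.5 nM. The part of such shifts in the results was not tested. In bulk RNA, a change in some of the cells and a smaller change in all of them cannot be told apart, nor can fewer cells from less RNA per cell.

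MRPL18 had the smallest p of the set. It lies on chromosome 6 (159789812 to 159798436, plus strand, 4 exons). This is a protein of the large subunit with a bacterial homologue, and in heat-shocked cells a form of it made from a downstream start codon is known to stay in the cytosol and join cytosolic ribosomes. Its normalized counts were 985, 920 and 888 in DMSO, 976, 1050 and 922 at 0.5 nM, and 1005, 939 and 859 at 5 nM. They were 1234, 1081 and 1094 at 50 nM and 1157, 1145 and 1150 at 500 nM. The values at 50 and 500 nM were all above those of DMSO and of both lower doses. The log2 difference from DMSO was 0.31 at 500 nM (SE 0.07, adjusted p = 0.00275, limma) and 0.29 at 50 nM (SE 0.07, adjusted p = 0.0113, limma).

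The step of MRPL18 lay between 5 and 50 nM, with a log2 difference of 0.28 (SE 0.07, adjusted p = 0.0163, limma), and MRPL18 was the only one of the 75 genes to pass in that comparison, in which 2.62% of all genes rose and 2.39% fell. Without adjustment 4 of the 75 were under 0.05 upwards and 2 downwards, against 8.99% and 8.66% of all genes. It passed at 500 nM in each of 26 alternative analyses. At 50 nM its adjusted p rose to 0.0515 without DMSO replicate 2, 0.0696 without DMSO replicate 3 and 0.0877 without 50 nM replicate 1. For the step it rose to 0.0514 and 0.107 without 5 nM replicates 2 and 3 and to 0.108 without 50 nM replicate 1.

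Its neighbour TCP1 moved over the same doses. TCP1 had normalized counts of 4929, 4777 and 4869 in DMSO, 5055, 5511 and 4919 at 0.5 nM, and 5120, 5245 and 5049 at 5 nM. It reached 6659, 5675 and 5951 at 50 nM and 6717, 6450 and 6728 at 500 nM, with all 6 of these above every value at the lower doses and in DMSO. Its log2 difference from DMSO was 0.32 at 50 nM (SE 0.05, adjusted p = 0.000524, limma) and 0.45 at 500 nM (SE 0.05, adjusted p = 5.71e-06, limma). No exon base of MRPL18 belongs to another annotated gene in the annotation used here. Whether reads of one gene entered the count of the other was not tested.

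MRPL32, on chromosome 7 (42932376 to 42948958, plus strand, 3 exons), was the second to pass. Its protein belongs to the large subunit and has a bacterial homologue, and the m-AAA protease of the inner membrane has to trim it before it can enter the ribosome. Normalized counts were 574, 550 and 576 in DMSO, 620, 668 and 582 at 0.5 nM, 601, 620 and 542 at 5 nM, 630, 659 and 642 at 50 nM, and 625, 738 and 743 at 500 nM. All treated values exceeded those of DMSO at 0.5, 50 and 500 nM, but not at 5 nM. The log2 difference was 0.30 at 500 nM (SE 0.07, adjusted p = 0.00557, limma) and 0.18 at 50 nM (SE 0.07, adjusted p = 0.169, limma). The call at 500 nM held in all 26 alternatives, with a highest adjusted p of 0.0374 without 500 nM replicate 3.

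PSMA2, on the other side of that start region, had few counts of its own, 46.5 to 53.8 in DMSO and 40.5 to 53.0 at 500 nM, with a log2 difference of -0.13 (SE 0.20, adjusted p = 0.724, limma). What set the low count of PSMA2 was not tested. Of 19 mitochondrial ribosomal protein genes with a neighbour that starts in the opposite direction within 1 kb, 17 had a neighbour that was tested, and 2 of these neighbours passed at 500 nM, both upwards, near the 7.69% of all genes that rose. They were TCP1 and TWNK, the helicase of mitochondrial DNA, whose log2 difference was 0.24 (SE 0.06, adjusted p = 0.0125, limma) while its partner MRPL43 stood at -0.04 (adjusted p = 0.778, limma). TWNK was singled out after its values were seen. MRPL46 and MRPS11 are each other's neighbour, with 63 bases between their starts, and neither passed.

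MRPS25, the third, on chromosome 3 (15009611 to 15065339, minus strand, 4 exons), belongs to the small subunit and is particular to mitochondria. Its normalized counts were 313, 321 and 292 in DMSO, 347, 408 and 337 at 0.5 nM, 361, 330 and 375 at 5 nM, 327, 376 and 387 at 50 nM, and 346, 410 and 378 at 500 nM. Each treated value was above each DMSO value at all 4 doses, with no visible order among the doses. The log2 difference passed at 500 nM only (0.29, SE 0.09, adjusted p = 0.0313, limma), and those at 5 and 50 nM were 0.20 and 0.23 (adjusted p = 0.341 and 0.164, limma). This call depended on single libraries. The adjusted p was 0.0669, 0.0514 and 0.122 without DMSO replicates 1, 2 and 3, and 0.151 and 0.0797 without 500 nM replicates 2 and 3. With no minimum on counts it was 0.0508.

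MRPS25 shares 44.1% of its canonical exon bases with other annotated genes. The largest overlap is with NR2C2, a gene for a nuclear receptor on the opposite strand. Without a stated strand setting reads from the shared bases cannot be assigned. NR2C2 had 722 to 768 normalized counts in DMSO and 764 to 864 at 500 nM, with overlapping libraries and a log2 difference of 0.14 (SE 0.09, adjusted p = 0.343, limma). The part of NR2C2 in the MRPS25 values was not tested.

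**Figure D3:**
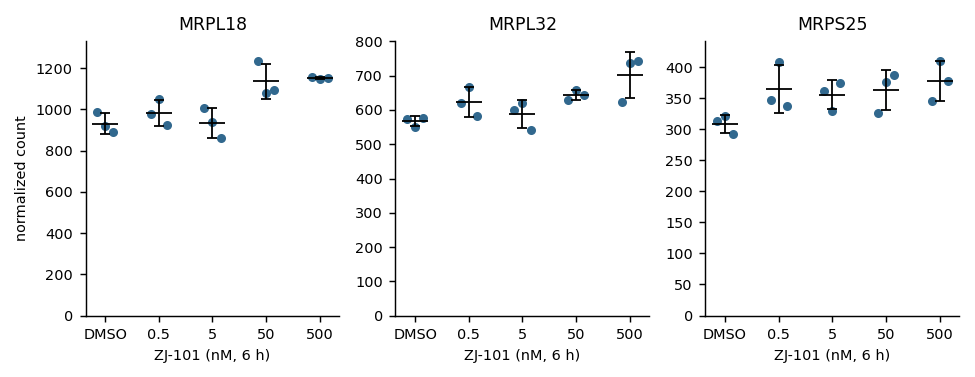
Normalized counts of MRPL18, MRPL32 and MRPS25 in the 15 libraries by dose of ZJ-101 at 6 h, with a point for each library and a dash and bars for the mean and SD of 3 libraries. MRPL18 lay between 859 and 1050 up to 5 nM and between 1081 and 1234 above it, and all 3 genes were above DMSO in every library at 500 nM.

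Over the dose range as a whole, a line through log2 values against dose rank, with DMSO as the lowest rank, rose in 2 of the 75 genes and fell in 0. Among all genes tested, 8.23% rose and 9.33% fell. Without adjustment 5 of the 75 were under 0.05 upwards and 3 downwards, against 14.7% and 15% of all genes. The slope per rank was 0.08 for MRPL18 (SE 0.02, adjusted p = 0.00246, limma) and 0.07 for MRPL32 (SE 0.02, adjusted p = 0.0108, limma). MRPL32 lost this call without 500 nM replicate 2 (adjusted p = 0.0509) or 3 (0.0513), and over the treated libraries alone (0.104). MRPS25 had a slope of 0.06 and did not pass (adjusted p = 0.0672, limma), although it did when 0.5 nM replicate 2, 50 nM replicate 1 or 500 nM replicate 1 was left out (0.00995, 0.0418 and 0.0440). The lowest p among falling genes was that of MRPL49, a slope of -0.04 with an adjusted p of 0.0698 by limma, which reached 0.0178 without DMSO replicate 3. MRPL49 was named after its values were seen.

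The other 72 genes did not pass at 500 nM. Their log2 differences ran from -0.25 (MRPL45, SE 0.34) to 0.24, and their intervals were narrow enough to be of use. For 69 of the 72 the 95% interval lay within a 1.5-fold change in either direction, and for 52 within 1.2-fold. The 3 outside it were MRPS28, MRPL38 and MRPL45, genes with means of 13.0 to 57.6 counts. Within a group, the log2 SD had a median of 0.09 over the 75 genes and was below 0.1 in 43. It was smallest for MRPS16, a conserved small subunit protein, at 0.03, and largest for MRPL45 at 0.42. The median log2 difference of the 75 genes at 500 nM was 0.04, against 0.003 over all genes tested, and was 0.02 without DMSO replicate 3.

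The libraries of 500 nM were all above those of DMSO for 13 of the 75 genes and all below for 4, where 18.9% and 19.6% of all genes tested showed these patterns. Those above included MRPL4, MRPL9, MRPL21, MRPS2 and MRPS7 besides the 3 that passed, and those below were MRPL42, MRPL44, MRPL48 and MRPS35. These names were read from the values. MRPL9, MRPL21 and MRPS7 had an unadjusted p under 0.05, as 6 of the 75 genes did in all upwards and 0 downwards (13.8% and 15.5% of all genes), and their adjusted p was 0.146 to 0.148 by limma. MRPL21 passed without 0.5 nM replicate 2 (adjusted p = 0.0400), with the same log2 difference of 0.13. MRPL4 passed with the length and GC trend removed (log2 difference 0.18, adjusted p = 0.0495).

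By place in the particle, 2 of 50 large subunit genes and 1 of 24 small subunit genes rose at 500 nM, where 7.69% of all genes rose and 10.1% fell, with medians of 0.03 and 0.04 (0.0349 and 0.0350 before rounding). By descent, 2 of 43 genes with a bacterial homologue and 1 of 31 particular to mitochondria did so, against the same shares, with medians of 0.04 and 0.02. MRPS18A and MRPS30, the MRPS-named proteins of the large subunit, had log2 differences of 0.14 (SE 0.09, adjusted p = 0.335, limma) and 0.11 (SE 0.05, adjusted p = 0.202, limma). MRPS30 had 931 to 966 normalized counts in DMSO and 972 to 1092 at 500 nM, without overlap. MRPS18C, the relative of MRPS18A in the small subunit, had 137 to 142 and 133.5 to 144.8, and MRPS36 had 256 to 339 and 301 to 314, both with overlap.

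The genes with extreme levels in DMSO did not pass either. At 500 nM the log2 differences of MRPL41, MRPL14 and MRPL51 were 0.002, 0.09 and -0.05, with SEs of 0.07 each, and the sign of the first turned with the library left out. Those of MRPL38 and MRPL2 were 0.16 and 0.10, with SEs of 0.31 and 0.20. MRPL46, named for its mean just inside the minimum, had a log2 difference of 0.10 with an SE of 0.20.

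**Figure D4:**
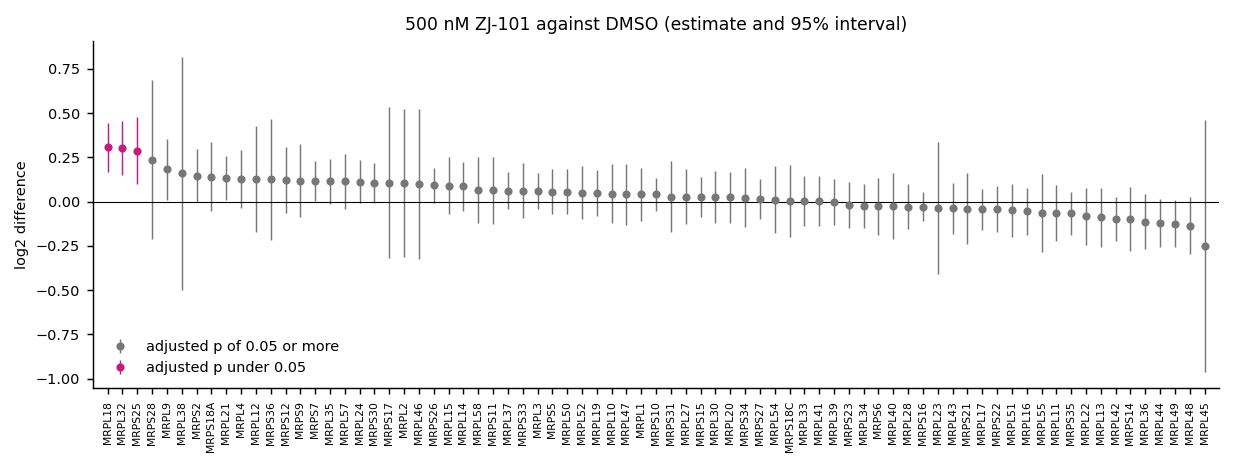
Log2 difference between 500 nM ZJ-101 and DMSO for each of the 75 mitochondrial ribosomal protein genes, in order of size, with 95% intervals from limma. MRPL18, MRPL32 and MRPS25, in colour, stood between 0.29 and 0.31 with intervals above 0, and the widest interval was that of MRPL45.

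At the lower doses fewer genes passed. At 5 nM 0 of 75 passed (limma), 3 had an unadjusted p under 0.05, all upwards, and the tests on recovered reads, by edgeR and by DESeq2, also called 0. Among all genes tested 0.465% rose and 1.71% fell, and 4.96% and 7.94% had an unadjusted p under 0.05 upwards and downwards. Libraries of 5 nM were all above DMSO for 6 genes and all below for 1, against 10.5% and 12.7% of all genes. At 50 nM MRPL18 alone rose and 0 fell, against 2.29% and 3.71% of all genes. Without adjustment 4 were under 0.05 upwards and 0 downwards (7.91% and 9.51% of all genes), and 6 had all libraries above DMSO and 1 all below (11.6% and 13.2%). Between 50 and 500 nM 0 of 75 passed by limma, edgeR and DESeq2, with 1 below an unadjusted p of 0.05 upwards, against 0.479% rising and 1.8% falling among all genes, or 5.6% and 7.48% without adjustment. The exception was MRPL21, which passed (adjusted p = 0.0445, log2 difference 0.16) without 0.5 nM replicate 2. The median log2 difference of the 75 genes from DMSO was 0.01 at both 5 and 50 nM, and its sign turned without DMSO replicate 3 (-0.00197 and -0.00613). With replicate 3 of the treated group left out instead, the medians were 0.05 at 5 nM and 0.04 at 50 nM.

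At 0.5 nM the set leaned upwards, most of all in 1 library. No gene passed by limma or edgeR, against 0.251% of all genes rising and 0.922% falling, and DESeq2 called MRPL14. Without adjustment 20 of the 75 genes had a p under 0.05 upwards and 0 downwards, where 6.1% and 8.63% of all genes did. MRPL14 had 1627, 1614 and 1512 normalized counts in DMSO and 1753, 2112 and 1768 at 0.5 nM, all above DMSO with replicate 2 far the highest, and a log2 difference of 0.24 (SE 0.07, adjusted p = 0.0933, limma). Libraries of 0.5 nM were all above DMSO for 16 genes and all below for 1, against 7.43% and 10.7% of all genes.

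Leaving out replicate 2 of 0.5 nM changed this picture. The 20 unadjusted calls upwards became 5, with 3 downwards (11 upwards without DMSO replicate 3), and the median of the 75 genes went from 0.08 to 0.03. Once the trend of log2 values on length and GC was taken out of each library, the median was 0.05 and the unadjusted calls were 16 upwards and 3 downwards. The share of all genes under an unadjusted p of 0.05 was not computed for these refits. Their counts therefore cannot be set against the 6.1% and 8.63% of the full fit. Without replicate 3 of 0.5 nM in place of replicate 2, MRPL14 (adjusted p = 0.0420) and MRPL12 (adjusted p = 0.0337, log2 difference 0.56) passed by limma. Among all 13561 genes 113 rose and 278 fell in that fit. Of 74 cytosolic ribosomal protein genes tested at this dose, 47 were below an unadjusted p of 0.05 upwards, against 6.1% of all genes, with a median of 0.16 and 0 past the adjusted threshold by limma. These cytosolic values include replicate 2 of 0.5 nM and were not computed without it. The part of that library in them was not tested.

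Proteins of the mitochondrial ribosome that carry other names were read beside the set. DAP3 and PTCD3, both of the small subunit, AURKAIP1 and CHCHD1, also of the small subunit, and GADD45GIP1 of the large subunit were all tested, and 0 of the 5 passed at 500 nM by limma, with 1 below an unadjusted p of 0.05. That gene was PTCD3, at 1414 to 1544 normalized counts in DMSO and 1582 to 1691 at 500 nM, with a log2 difference of 0.14 (SE 0.06, adjusted p = 0.129, limma). DESeq2 and edgeR did not call it, and the fit of these 6 libraries alone did (adjusted p = 0.0328). DAP3 had 1639 to 1708 in DMSO and 1654 to 1752 at 500 nM, and its difference was 0.03. Those of AURKAIP1, CHCHD1 and GADD45GIP1 were within 0.01 of 0.

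Genes that build the ribosome are listed apart from its proteins. Of 27 tested genes for assembly and rRNA modification, 3 (11.1%) rose at 500 nM and 0 fell, near the 7.69% and 10.1% of all genes. DHX30, an RNA helicase of mitochondrial RNA granules, went from 2720, 2867 and 2776 normalized counts in DMSO to 3311, 3086 and 3156, a log2 difference of 0.19 (SE 0.04, adjusted p = 0.00351, limma). RPUSD4, which makes pseudouridine in the larger mitochondrial rRNA, went from 479 to 523 in DMSO to 575 to 621 (0.23, SE 0.07, adjusted p = 0.0262, limma). NGRN, which works with it, went from 537 to 592 to 615 to 659 (0.21, SE 0.06, adjusted p = 0.0276, limma). The libraries of each did not overlap those of DMSO.

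RPUSD4 lost its call without DMSO replicate 3, 500 nM replicate 2 or 500 nM replicate 3 (adjusted p = 0.122, 0.109 and 0.0654). NGRN lost it without DMSO replicate 2 or 3 or without 500 nM replicate 1 or 2 (0.113, 0.105, 0.0886 and 0.103), and with no minimum on counts (0.0554). DHX30 kept it in all 26 alternatives. The list median was 0.05.

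Of 17 tested translation factors and genes for handling mitochondrial mRNA, 2 (11.8%) rose at 500 nM and 0 fell, near the 7.69% and 10.1% of all genes, with a list median of 0.06. GUF1, a GTPase related to bacterial elongation factors, went from 790 to 854 normalized counts in DMSO to 920 to 939 (0.19, SE 0.05, adjusted p = 0.0152, limma). MTIF2, the initiation factor that brings the first tRNA, went from 752 to 782 to 835 to 877 (0.17, SE 0.06, adjusted p = 0.0395, limma). GUF1 lost its call without DMSO replicate 1 or 2 or 500 nM replicate 2 (0.0627, 0.0748 and 0.0514). MTIF2 lost it without any 1 of the 6 libraries compared, DMSO replicates 1 to 3 (0.121, 0.111 and 0.0613) and 500 nM replicates 1 to 3 (0.0515, 0.126 and 0.110), by DESeq2 (0.0572) and with no minimum on counts (0.0893).

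Of 14 genes for transcription of mitochondrial DNA and for factors upstream of it, 3 rose at 500 nM and 0 fell, where 7.69% and 10.1% of all genes did. PPARGC1B, PPRC1 and PPARGC1A are coactivators of the family that drives genes for mitochondrial function. PPARGC1B went from 97.1, 63.7 and 77.1 normalized counts in DMSO to 131, 130 and 136, a log2 difference of 0.75 (SE 0.16, adjusted p = 0.00223, limma). PPRC1 went from 1082, 1070 and 1066 to 1446, 1442 and 1429 (0.42, SE 0.05, adjusted p = 3.81e-06, limma). It already stood at 1248 to 1374 at 50 nM (0.30, adjusted p = 0.000422, limma). PPARGC1A, named with GABPA after the values were seen, had 72.1, 68.8 and 75.1 in DMSO and 50.96, 56.6 and 59.2 at 500 nM, all below, and its log2 difference of -0.37 did not pass (SE 0.16, adjusted p = 0.138, limma). PPARGC1A and GABPA, a subunit of an ETS-family factor (-0.16, adjusted p = 0.158, limma), were the 2 with an unadjusted p under 0.05 downwards. MYC, a transcription factor of growing cells, went from 1643 to 1832 in DMSO to 2050 to 2186 (0.29, SE 0.05, adjusted p = 0.000169, limma). PPARGC1B, PPRC1 and MYC passed at 500 nM in each of the 26 alternatives, and their libraries of 500 nM did not overlap DMSO. The median of these 14 genes was 0.06.

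The transcripts that the mitochondrial ribosome reads varied too much between replicates to compare closely. The 13 mitochondrial mRNAs summed to 101217 to 174739 normalized counts in DMSO and to 108223 to 195589 at 500 nM, with overlap. At 500 nM 0 of these mRNAs and the 2 rRNAs passed by limma, 0 had an unadjusted p under 0.05, and the median log2 difference was 0.09. At 5 nM the median was 0.63 and 10 of the 15 had an unadjusted p under 0.05, all upwards, against 4.96% of all genes. The adjusted threshold was passed by MT-RNR1 alone (0.68, SE 0.16, adjusted p = 0.0278, limma), the smaller rRNA, named after its values were seen. The 13 mRNAs summed to 163919 to 228734 at 5 nM, which overlapped DMSO. All 15 transcripts share the same libraries and are no independent replicates. These transcripts were measured in poly-A selected RNA, and how evenly that selection carried them was not tested.

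**Figure D5:**
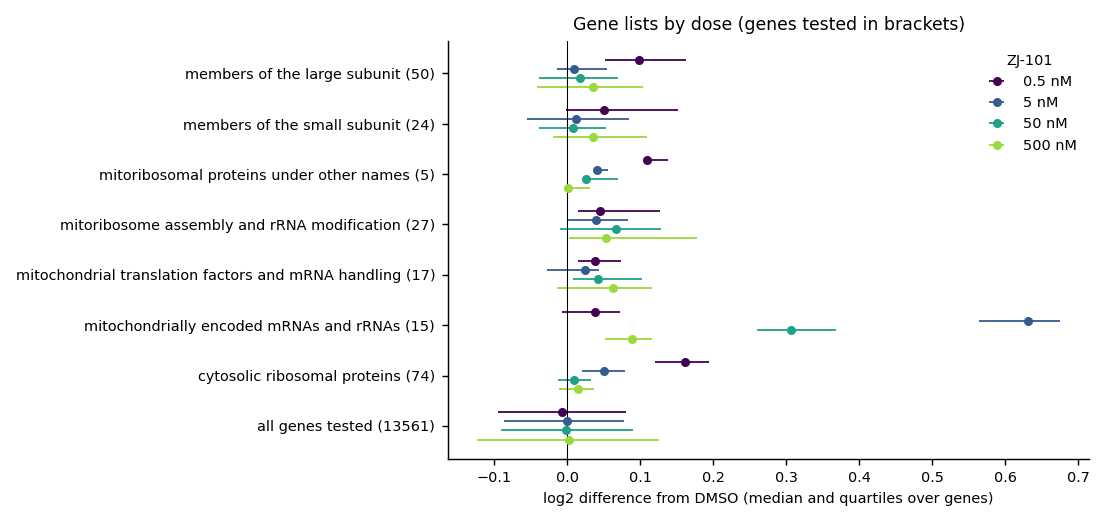
Median log2 difference from DMSO, with quartiles over genes, for 8 gene lists at 4 doses of ZJ-101. The mitochondrial ribosomal protein genes of both subunits reached at most 0.10 at any dose, and the mitochondrially encoded transcripts reached 0.63 at 5 nM.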

How the data were processed

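RNA-seq of 15 libraries, 3 biological replicates of each of 5 groups, was taken from 1 deposited table of gene-level signal. According to the methods and the labels, the authors sequenced poly-A RNA as 150 bp pairs, used HISAT2 for alignment to hg38 and htseq-count for gene counts, and scaled these by DESeq2 size factors. Tool versions, strand setting and counting mode are not given in the sources used here. Whole reads were recovered for 100% of the deposited signal values within 0.001 of a whole number, 12415519 to 15284762 per library. That number of reads and the 3 libraries per group set the precision.

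From these values, log2(normalized count + 1) was fitted with limma 3.58.1 (R 4.3.3) with a variance trend on the mean, with all 15 libraries in 1 fit, for 13561 genes with a mean of at least 10, and Benjamini-Hochberg adjustment was made over all of them at a threshold of 0.05, two-sided. Log2 differences on this scale understate changes of low genes. Contrasts were each dose against DMSO, 5 to 50 nM, 50 to 500 nM and a slope on dose rank. The comparisons with DMSO share its 3 libraries. Alternatives were edgeR 4.0.16 and DESeq2 1.42.0 on recovered reads, other pseudocounts, filters and scalings, a replicate block, only the groups compared, removal of length and GC trends, and leaving out each library. The procedure was tested on simulated data. Positions and overlaps came from GENCODE release 44 and copies from minimap2 2.31-r1302. Promoter windows came from RefSeq. Genes were named if they passed a test (up to 10 each way at 500 nM and up to 3 elsewhere), had the 3 highest or lowest levels per kilobase, lay next to the minimum, had a place unlike their symbol, were start-region neighbours, or led another list. Genes and lists were chosen with earlier results of these data known.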

Additional observations from a re-analysis of the deposited data

How the results depend on the processing

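Of the 26 alternative analyses, most left the counts of called mitochondrial ribosomal protein genes and the sign of each named difference as reported. Larger shifts are given here, and the cause was not tested. At 0.5 nM DESeq2 called 1 gene upwards in place of 0, while all genes rising went from 34 to 78. With only the groups compared, 5 rose at 500 nM in place of 3, while all genes rising went from 1043 to 1552 of 13561. There were 4 with the length and GC trend removed, which added MRPL4, beside 1566 of 12633 genes. With no filter, which tests more genes and lost MRPS25, there were 2, beside 871 of 31620. Over the treated libraries alone the slope rose in 1 in place of 2 and fell in 3 in place of 0. Among all genes it rose in 1247 in place of 1116 and fell in 1162 in place of 1265. The slope fell in 1 with the length and GC trend removed, beside 1328 of 12633 genes. Leaving out single libraries gave 0 to 2 rising at 0.5 nM, 0 to 1 at 50 nM and 2 to 4 at 500 nM. Among all genes these fits gave 7 to 113, 197 to 539 and 766 to 1443. From 5 to 50 nM the count was 0 to 1, beside 223 to 557 of all genes. From 50 to 500 nM it was 0 to 1, beside 26 to 228. Slopes rose in 1 to 3 and fell in 0 to 1, beside 814 to 1263 and 969 to 1425 of all genes. The median of all genes at 0.5 nM, -0.00685, was 0 with no filter, 0.00139 with TMM scaling, -0.0107 with the same total per library, 0.00984 with the length and GC trend removed and -0.0105 to -0.00285 with single libraries left out. At 5 nM it was -0.00998 with the same total and 0.0116 without the length and GC trend, and without that trend it was 0.00433 at 50 nM and 0.0155 at 500 nM.

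At 500 nM the sign of small differences turned for CHCHD1 with the same total (0.00215) and with edgeR (0.000237) and for GADD45GIP1 with the trend removed (0.00886). With single libraries left out it turned within -0.0195 to 0.0187 for AURKAIP1, -0.0352 to 0.0362 for CHCHD1, -0.0489 to 0.0164 for GADD45GIP1, -0.0124 to 0.224 for MRPL2, -0.248 to 0.394 for MRPL38, -0.0257 to 0.0241 for MRPL41, -0.552 to 0.0465 for MRPL45 and -0.0171 to 0.0413 for MRPS18C.

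Same-numbered libraries did not deviate together, with 18 correlations between -0.085 and 0.073, so the numbers were not taken as a pairing. With a replicate block 3 of the genes still passed upwards at 500 nM, where 1116 of 13561 genes did. The slope then fell in 1, MRPL49, in place of 0, and in 1248 of all genes.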
